A study of Brassica napus with 8 samples.

Results

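The probes described here are those whose RNA level was strongly higher after larval feeding in both wild-type and *MINELESS* seedlings of *Brassica napus* (oilseed rape). They were chosen on the measured values. A probe had to carry a log2 ratio, in the likely direction of challenged over control, on at least 3 of the 4 wild-type arrays and at least 3 of the 4 *MINELESS* arrays, and its plain mean had to be 1 or higher in each genotype. A log2 ratio of 1 is a doubling. The rule was met by 63 of the 34992 probes on the array. Most of the 34992 could not be judged, since 8409 had a value on any array and 1747 had enough values in both genotypes. These 1747 are the tested probes below.

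Seedlings of the cultivar Westar and of the transgenic line *MINELESS*, aged 6 to 7 days, were fed on for 24 h by 10-day-old larvae of *Mamestra brassicae* (cabbage moth), and control seedlings received no larvae. Above-ground tissue was harvested. Its identity was not checked against marker genes, since the probes carry no gene names here. In *MINELESS*, an RNase (barnase) driven by a myrosinase promoter kills the myrosin cells while the seed develops. The larvae had been raised on the genotype on which they later fed, so a different plant and differently raised larvae cannot be told apart. Nor can the genotype and the amount of tissue eaten. A biological replica pooled 6 pots of challenged or 4 pots of control seedlings, with 4 seedlings in a pot. Each of the 8 arrays hybridized challenged RNA of 1 replica against control RNA of the same genotype, 4 arrays per genotype. In bulk tissue of this kind, a change in the share of a cell type and a change of RNA per cell cannot be told apart.

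Plants of the Brassicaceae store glucosinolates, and chewing brings these into contact with myrosinase, an enzyme kept in separate myrosin cells, which releases toxic hydrolysis products. Wounding by a chewing insect also sets off synthesis of jasmonic acid, a hormone whose active conjugate leads to the breakdown of JAZ repressor proteins and so frees transcription factors such as MYC2. Genes for jasmonate synthesis itself, for tryptophan and for indole glucosinolates are classic targets of this pathway in *Arabidopsis*. The arrays carried oligonucleotides designed on *Arabidopsis*, and *B. napus* is a polyploid in which an *Arabidopsis* gene often has several copies, so a probe may sum over transcripts of several copies. No table used here pairs a probe with a gene. Probes are therefore named by their identifier on the array, and no gene or pathway is assigned to them.

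Challenged RNA carried Cy5 in replicas 1 and 2 and Cy3 in replicas 3 and 4 of each genotype. For *MINELESS* replicas 3 and 4, a treatment label gives larvae in both channels, and the channel names were followed. Over the tested probes, arrays of opposite dye orientation correlated positively (Pearson's r from 0.56 to 0.84 in 16 pairs, across probes, which are not independent replicates), so the deposited ratios had already been turned the same way. That the common direction is challenged over control is likely, on the basis of the stated design, and is not settled by the values. The number of values ranged from 4551 to 7119 on the wild-type arrays and was 4669, 1781, 1662 and 4690 on *MINELESS* replicas 1 to 4. Wild-type replica 4 had the widest ratios, with a median absolute deviation of 0.561 (log2) over the tested probes, against 0.307 to 0.419 on the other 7 arrays. The number of arrays limits the precision of all values below.

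The 63 probes had a median log2 ratio of 1.97 in wild-type, a 3.92-fold rise, and of 1.53 in *MINELESS*, a 2.89-fold rise. Their means ran from 1.00 to 3.72 in wild-type and from 1.00 to 3.00 in *MINELESS*. Over all 1747 tested probes, the medians were -0.02 and -0.02, and 5.9% and 4.12% reached a mean of 1 in wild-type and in *MINELESS*, a share that the rule itself sets for the 63. A mean of 2 or higher, which is a 4-fold rise or more, was found for 31 of the 63 in wild-type, for 16 in *MINELESS* and for 15 in both. In a fit across all tested probes with limma, all 63 passed an adjusted *P* of 0.05 with a log2 ratio above 0.5 in wild-type, and all 63 passed in *MINELESS*. The background was 11.8% of all tested probes called as higher in wild-type and 8.36% in *MINELESS*. These calls rest on the values by which the probes were chosen, so they only describe them. A value on all 8 arrays was present for 50 of the 63 (60.4% of all tested probes).

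The level varied between single arrays, with a median above 1 on each of them. The medians of the 63 probes were 1.91, 2.05, 1.76 and 2.21 on wild-type replicas 1 to 4 and 1.49, 1.42, 1.45 and 1.64 on the *MINELESS* replicas. At 1 or higher were 55 of 63, 62 of 63, 61 of 62 and 58 of 62 probes with a value on the wild-type arrays, and 55 of 61, 50 of 59, 45 of 59 and 56 of 62 on the *MINELESS* arrays. *MINELESS* replica 3 thus had the smallest share at 1 or higher, and every wild-type median lay above every *MINELESS* median. On all arrays with a value, 62 of the 63 stood above 0 (12.6% of all tested probes). The exception was Narc8_12098, at -0.005 on *MINELESS* replica 3. At 1 or higher on all arrays with a value were 35 of the 63. Any tested probe of this kind meets the rule, so these 35 are also all such probes among those tested (2%). Both counts use the values of the rule and only describe the probes. Of the 28 probes under 1 somewhere, 11 were so on a wild-type array and 25 on a *MINELESS* array. The lowest single wild-type value was 0.038, on replica 1, for Narc8_02704.

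The highest probe in both genotypes was Narc8_24474. Its log2 ratios on wild-type replicas 1 to 4 were 3.36, 3.77, 3.55 and 4.19, a mean of 3.72 ± 0.36 (SD, n = 4) or 13.1-fold. In *MINELESS* they were 3.47, 2.29, 2.93 and 3.31, a mean of 3.00 ± 0.53 (SD, n = 4) or 8.0-fold. The groups overlapped, since *MINELESS* replica 1 lay above wild-type replica 1. Narc8_22356 came next by the lower of its genotype means, with 3.77, 2.03, 2.90 and 3.43 in wild-type and 3.81, 2.18, 1.94 and 3.87 in *MINELESS*. Its genotype means of 3.03 and 2.95 were close, while arrays of the same genotype lay far apart.

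Narc8_19756 stood at 2.42, 2.81, 2.44 and 3.74 on the wild-type arrays and at 3.10, 3.11, 2.25 and 2.56 on the *MINELESS* arrays, with means of 2.85 and 2.75. Narc8_17543 had a similar level, with 2.36, 2.60, 2.80 and 3.98 in wild-type and 2.44, 3.44, 2.36 and 2.69 in *MINELESS*. On both probes wild-type replica 4 was the highest array, and the genotypes overlapped. Narc8_12784 had 3.55, 3.34, 3.13 and 3.69 in wild-type and 2.61, 2.12, 2.65 and 3.33 in *MINELESS*, and 3 of its *MINELESS* arrays lay below all wild-type arrays.

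The sixth by this order, Narc8_12201, had 4.14, 2.98, 3.20 and 3.73 in wild-type. In *MINELESS* it had 3.48, 0.71 and 3.66 on replicas 1, 3 and 4 and no value on replica 2. Its *MINELESS* mean of 2.61 ± 1.65 (SD, n = 3) therefore averaged arrays that lay far apart, the widest spread among the 63. Of the 10 highest probes of each genotype, 9 were shared, but their order differed. Narc8_29377 was at rank 2 in wild-type and 8 in *MINELESS*, Narc8_22356 at 6 and 2, and Narc8_19224, the wild-type probe that was not shared, at 8 and 43. Across the 63 probes, wild-type and *MINELESS* means correlated at 0.78 (Pearson) and 0.71 (Spearman). This correlation describes probes measured on the same arrays, and the cutoff limits it from below.

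At the cutoff, membership rested on differences far smaller than the spread between arrays. The lowest members by the lower of their means were Narc8_30325 (2.80 in wild-type, 1.01 in *MINELESS*), Narc8_08782 (1.0025 and 1.04) and Narc8_24834 (1.90 and 1.00). Just outside lay Narc8_24039 (1.01 and 0.994), Narc8_25056 (2.97 and 0.994) and Narc8_08031 (1.01 and 0.991). A mean of 1 or higher in wild-type alone was found for a further 40 tested probes, and in *MINELESS* alone for 9. Missing *MINELESS* values also limited the list. Of the 333 probes with at least 3 wild-type values and a wild-type mean of 1 or higher, 230 had fewer than 3 *MINELESS* values, and 108 of these had none.

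The spread between arrays was larger for these probes than for tested probes at large. The median SD was 0.415 (log2) in wild-type and 0.359 in *MINELESS*, and over all tested probes it was 0.259 and 0.247. An SD above 0.5 was found for 23 of the 63 in wild-type, against 8.93% of all tested probes, and for 14 in *MINELESS*, against 5.15%. The most even probe was Narc8_15064, with 1.15, 1.44, 1.30 and 1.55 in wild-type and 1.19, 1.00, 1.01 and 1.05 in *MINELESS*. Narc8_02182 and Narc8_24834 followed, with SDs of at most 0.193 and 0.213 in either genotype. At the other end, after Narc8_12201, stood Narc8_12098 and Narc8_22356. Narc8_12098 had 2.46, 2.76, 2.38 and 3.55 in wild-type but 2.34, 1.08, -0.005 and 2.75 in *MINELESS*, so its replicas 1 and 4 lay near the wild-type level and its replicas 2 and 3 did not. The probes with a higher mean were also the more variable (Spearman's rho of 0.59 across the 63 between the wild-type mean and the higher of the genotype SDs, both from the same arrays).

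Because the probes were chosen on all 8 arrays, the rule was also applied to 7 arrays and the chosen probes were read on the array left out. With each wild-type array left out in turn, 62 to 64 probes were chosen, and their median log2 ratio on that array was 1.89, 2.05, 1.76 and 2.21 for replicas 1 to 4. At 1 or higher on it were 55 of 64, 61 of 63, 59 of 62 and 57 of 62. With each *MINELESS* array left out, 58 to 63 probes were chosen, and the medians were 1.47, 1.38, 1.42 and 1.64. Here 53 of 63, 45 of 58, 41 of 59 and 49 of 58 stood at 1 or higher. Among the probes not chosen, 2.14% to 5.41% reached 1 on the wild-type array left out and 1.03% to 1.88% on the *MINELESS* array left out, with medians between -0.05 and 0.003. On 5 of the 8 arrays every chosen probe was above 0, and on wild-type replica 4 and *MINELESS* replicas 3 and 4 a single probe was at or below 0 (Narc8_07946 at 0, Narc8_12098 at -0.005 and Narc8_20531 at -0.32). The share at 1 or higher on the array left out was lowest on *MINELESS* replica 3 (69.5%). Only probes with a value on the array left out, of any size, could be chosen.

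The response of the 63 probes was on the whole smaller in *MINELESS*. The limma estimate of the difference, *MINELESS* minus wild-type log2 ratio, was below 0 for 55 of the 63 probes, against 50.7% of all tested probes. Its median was -0.39, with quartiles of -0.71 and -0.15 and a range from -1.80 to 0.30, while the median over all tested probes was -0.004. All tested probes centre near 0 in both genotypes. The 50.7% and the -0.004 are therefore no measure of how the width of the arrays moves the difference of probes of high ratio. This also limits the shares of all tested probes given below for the difference. The rule set a floor under both means and did not use their difference, but the difference is built from the same values and is not independent of the choice. The size of the median varied with the arrays used and with their scale. The part of the spread of the arrays in this was not tested. Without wild-type replica 4 it was -0.24 (50 of 63 probes below 0), and with all arrays scaled to the same median absolute deviation it was -0.19 (52 of 68 below 0).

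The difference passed an adjusted *P* of 0.05 with a size beyond 0.4 for 6 of the 63 probes (limma, adjusted over all 1747 tested probes), where 1.03% of all tested probes passed. All 6 were lower in *MINELESS* (0.63% of all tested probes were called as lower and 0.401% as higher). With no adjustment, 16 of the 63 had a *P* under 0.05, again all lower in *MINELESS*, where 10.9% of all tested probes passed in either direction and 5.78% as lower. On 11 of the 63, every *MINELESS* array with a value lay below every wild-type array (4.06% of all tested probes). These 11 included all 6 called probes. On none of the 63 did every *MINELESS* array lie above (4.46%).

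Narc8_30325 had the largest difference. It stood at 2.85, 2.89, 2.55 and 2.92 on the wild-type arrays and at 0.23, 1.03, 0.97 and 1.80 on the *MINELESS* arrays. The wild-type arrays were close to each other, and the *MINELESS* arrays were more widely spread but all lay lower. Its difference was -1.80 with a standard error of 0.26 and a limma adjusted *P* of 0.00543. Narc8_19224 had 2.73, 3.14, 3.24 and 2.79 in wild-type against 0.79, 1.08, 0.69 and 2.26 in *MINELESS*, a difference of -1.77 with a standard error of 0.28 (limma adjusted *P* of 0.0104). On both probes, *MINELESS* replica 4 was the array nearest to wild-type.

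The other 4 had smaller differences. Narc8_24675 had 2.78, 2.64, 3.09 and 2.79 in wild-type and 1.14, 2.37, 1.98 and 1.38 in *MINELESS* (difference -1.11 ± 0.25 SE, limma adjusted *P* of 0.0497). Narc8_17580 had 1.64, 2.20, 2.13 and 2.43 in wild-type and 1.1, 1.09 and 1.00 on *MINELESS* replicas 1 to 3, with no value on replica 4 (difference -1.0 ± 0.22 SE, limma adjusted *P* of 0.0467). These *MINELESS* arrays were the most even set of values among the 63, with an SD of 0.0548. Narc8_23405 had 2.71, 2.69, 2.45 and 2.79 in wild-type and 1.76, 1.24, 1.97 and 1.88 in *MINELESS* (difference -0.95 ± 0.19 SE, limma adjusted *P* of 0.0387). Narc8_24834, one of the probes at the cutoff, had 2.21, 1.81, 1.87 and 1.72 in wild-type and 1.25, 0.80, 0.87 and 1.09 in *MINELESS* (difference -0.90 ± 0.19 SE, limma adjusted *P* of 0.0387).

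The count of 6 varied when single arrays were left out and the rule and the fit were applied to the remaining 7 arrays. On the wild-type side, it was 2 when replica 1 was left out, 1 for replica 2, 9 for replica 3 and 7 for replica 4. On the *MINELESS* side, it was 1 when replica 1 was left out, 3 for replica 2, 0 for replica 3 and 1 for replica 4. A fit on fewer arrays is also less precise, so a lower count does not show that the omitted array produced the calls. With *MINELESS* replica 3 left out, 63 probes met the rule, 59 of them among the original 63, and limma gave 16 an unadjusted *P* below 0.05, against 7.96% of the probes tested in that fit. A replicate block used instead of the dye coefficient gave 10. That block pairs arrays by number, although no wild-type array correlated best with the *MINELESS* array of its own number. The sign of the difference held for all 6 probes under every alternative fit, and its size stayed between -2.13 and -0.75. Narc8_30325 kept its call in 14 of 15 alternative fits and Narc8_19224 in 12 of 15, whereas the other 4 kept theirs in 6 to 8 of 14 or 15.

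For the other 57 probes the difference did not pass, and their estimates ran from -1.34 to 0.30. This does not show that the genotypes responded alike. The 95% intervals of all 63 had a median half-width of 0.53 and included 0 for 47, where 89.1% of all tested probes had an interval that included 0. The most negative of the 57 was Narc8_29377, with 3.40, 3.87 and 3.83 on wild-type replicas 1, 2 and 4, no value on replica 3, and 2.38, 1.36, 2.52 and 3.75 in *MINELESS*. Its difference of -1.34 had a limma adjusted *P* of 0.0837, between 0.0242 and 0.615 over the alternative fits, and it was called in 4 of 14 of them. The fit corrects for the dye, so for a probe with a missing array the estimate departs from the gap between plain means.

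On the other side of 0 were 8 probes, none of them called. The largest of these differences was 0.30 for Narc8_20588, whose 95% interval ran from -0.42 to 1.03. It had 2.68, 1.95 and 0.94 on wild-type replicas 1 to 3, no value on replica 4, and 2.23, 1.61, 2.50 and 2.07 in *MINELESS*. Without wild-type replica 3, its lowest wild-type array, the difference was -0.40. That fit held only wild-type replicas 1 and 2 for this probe, both with challenged RNA in Cy5. Its dye correction therefore came from the *MINELESS* arrays alone. Narc8_06553 had 2.18, 1.97, 1.07 and 1.01 in wild-type and 1.93, 2.08, 1.42 and 1.82 in *MINELESS*, a difference of 0.26 (95% interval -0.16 to 0.67). Narc8_10807 had 1.73, 1.06, 1.12 and 1.52 in wild-type and 1.72, 1.24, 1.66 and 1.62 in *MINELESS*, a difference of 0.20 (95% interval -0.24 to 0.64). On these 3 probes the genotypes overlapped.

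Deviations of single arrays from the genotype mean were shared among many of the probes. Wild-type replica 4 was the highest wild-type array for 35 of the 61 probes with all 4 wild-type values, against 29.4% of tested probes. It was above the mean of the other wild-type arrays for 49 of 62. Over these 62 the gap had a median of 0.40, and over all tested probes of -0.02. The ratios of all tested probes centre near 0 on every array (medians from -0.032 to 0.017). The -0.02 is therefore no measure of how a wide array moves probes of high ratio. For 11 probes the gap was above 1, which held for 37 in all of the 1652 tested probes with a value on wild-type replica 4. These 11 were picked out after their values had been seen. The widest gaps were those of Narc8_14666, with 2.12, 2.11, 2.41 and 4.06 in wild-type, of Narc8_11782, with 2.08, 2.18, 2.26 and 3.95, and of Narc8_25072, with 1.76, 1.86, 1.93 and 3.57. None of the 11 was among the 6 probes called for the difference, where 9.52% of the 63 were called. A wide gap also raises the spread that enters the test and so makes a call harder. No conclusion is drawn from this count. Replica 4 was also the wild-type array with the fewest values and the widest ratios. The part of this width in the 11 gaps was not tested.

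In *MINELESS*, replicas 2 and 3 departed from replicas 1 and 4 in either direction. The mean of replicas 2 and 3 was more than 0.5 away from that of replicas 1 and 4 for 16 of the 52 probes with all 4 *MINELESS* values (30.8%), against 15.4% of tested probes. It was higher for 9 of the 16 and lower for 7. Narc8_11711, at 1.47, 3.32, 3.09 and 2.09, was the most extreme with replicas 2 and 3 high, and Narc8_12098 was the most extreme with these replicas low. Replicas 2 and 3 were also the *MINELESS* arrays with the fewest values, and the dye does not separate these pairs, since each pair holds both orientations. The part of the missing values in this pattern was not tested.

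The dye effect is a measure that the choice of probes did not use, since for a probe with all values it is balanced against the genotype means. Probes of strong dye bias had been removed before deposit, which limits what a count of called dye effects can show. The part of this removal in the counts was not tested. After adjustment in limma, a dye effect passed 0.05 for 0 of the 63 and for 0% of all tested probes, whereas 5 of the 63 had an unadjusted *P* under 0.05, against 2.06% of all tested probes. The largest dye effects were -0.42 for Narc8_29377, -0.38 for Narc8_11711 and 0.36 for Narc8_06553 (log2, positive where the ratio is higher with challenged RNA in Cy5). For Narc8_06553 the wild-type arrays with Cy5 stood near 2 and those with Cy3 near 1. The effect was below 0 for 44 of the 63 probes, against 48.5% of all tested probes. It was below 0 for 30 of 63 without wild-type replica 4, for 34 of 64 without wild-type replica 1, and for 12 of 68 after scaling. With any other array left out, it was below 0 for 62.9% to 74.6% of the probes that met the rule. Its direction over the probes thus changed with the arrays used and with their scale. The cause was not tested.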

How the data were processed

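Wild-type and *MINELESS* responses were measured on 4 dual-colour arrays each. The authors deposited log2 ratios, made with R 2.10.1 and limma (per the labels) by print tip-loess normalization within arrays, without background subtraction, with spots of a probe averaged and probes of strong dye bias removed. How cells came to be empty is not stated in these sources. Scanner signals were not used here.

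The rule was applied to plain means. A linear model with a coefficient per genotype and a probe-specific dye effect was estimated in limma 3.58.1 (R 4.3.3) for the 1747 probes with at least 3 values per genotype, with Benjamini-Hochberg adjustment over all of them. A call needed an adjusted *P* under 0.05, plus an estimate beyond 0.5 for a response or 0.4 for a difference (log2). Samples were grouped by title. Replicas were separate pools of seedlings, so *P* values measure the spread between pools. When an array was left out to read the chosen probes, a value on it, at least 2 other values of its genotype and 3 of the other genotype were needed.

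Named were the 6 probes highest by the lower mean, the 3 at either end of the difference, all called for it, the 3 smallest and 3 largest SDs, the 3 largest dye effects and the 3 on either side of the cutoff. Any other probe was picked after its values were seen. The members, lists and rules were chosen with earlier results of these data known. Gene lists for jasmonate, tryptophan and glucosinolate synthesis and for cell types were not used, for want of a probe annotation. Alternatives were other cutoffs, complete probes, fitted means, centring, scaling, each array left out, no dye term, a replicate block, array weights, robust moderation and other thresholds.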

Additional observations from a re-analysis of the deposited data

Results flagged for a closer look

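Of 113 groups of 4 arrays examined among the 63 probes, 9 held an array far from the other 3 by Dixon's ratio, a departure that chance alone produces in about 1 in 20 groups. Replica 4 of the wild-type stood high on Narc8_14666 (4.06, others 2.11 to 2.41), Narc8_11782 (3.95, others 2.08 to 2.26), Narc8_25072 (3.57, others 1.76 to 1.93), Narc8_24542 (3.21, others 1.98 to 2.16) and Narc8_10662 (2.63, others 1.88 to 1.98). The same array stood low on Narc8_15397 (0.87, others 1.38 to 1.42). Wild-type replica 1 stood low on Narc8_03240 (1.47, others 2.099 to 2.18) and Narc8_02704 (0.038, others 1.31 to 1.53). *MINELESS* replica 1 stood high on Narc8_24147 (2.49, others 1.97 to 2.06).

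The response differed between the genotypes, by limma's test of the difference, on Narc8_30325 (-1.80), Narc8_19224 (-1.77), Narc8_24675 (-1.11), Narc8_17580 (-1.0), Narc8_23405 (-0.95) and Narc8_24834 (-0.90), as *MINELESS* minus wild-type log2 ratio. Without *MINELESS* replica 3 none of the 6 was called (limma adjusted *P* from 0.0607 to 0.333). Over the alternative fits Narc8_30325 was called in 14 of 15, Narc8_19224 in 12 of 15, Narc8_23405 and Narc8_24834 in 8 of 15, Narc8_17580 in 7 of 14 and Narc8_24675 in 6 of 15. The causes of these departures were not tested.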

How the results depend on the processing

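With a cutoff of 0.5 in both genotypes, 137 probes met the rule, with medians of 1.35 in wild-type and 1.025 in *MINELESS*, of which 137 were called in wild-type and 129 in *MINELESS*, and 10 for the difference. With a cutoff of 1.5, 32 probes met it, with medians of 2.57 and 2.00, of which 32 were called in each genotype and 2 for the difference. The count of 6 called for the difference was 3 after scaling of the arrays, 10 with array weights, 10 with the replicate block and 1 at an adjusted *P* of 0.01.

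With 1 array omitted at a time, 59 to 65 probes met the rule. The wild-type median was 1.85 to 2.07, the *MINELESS* median was 1.46 to 1.59, with a median difference of -0.46 to -0.24. Called were 59 to 65 in wild-type, 59 to 64 in *MINELESS*, 0 to 9 for the difference and 0 for a dye effect (3 to 9 at an unadjusted *P* under 0.05 in limma). The difference of Narc8_20588 turned from 0.30 to -0.40 without wild-type replica 3, with a range of -0.40 to 0.66 over the arrays omitted. Without that replica, its wild-type values all had challenged RNA in Cy5. The causes were not tested. Of the recomputed counts and medians, 111 stayed within 1.5 times or the spread between arrays and 22 did not. Many of the 111 could hardly move, since the counts called in each genotype follow from the rule and the dye count was 0 throughout. Outside the changes of cutoff, all that moved were the count called for the difference.

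As a check of pairing, the correlation of deviations between arrays with the same number was 0.245, 0.0437, -0.109 and 0.0322 over 1056 probes, and no wild-type array correlated best with the *MINELESS* array of its own number. The numbers were not taken to pair the arrays, except in the alternative fit with the replicate block. Signal over background was not used here, and missing *MINELESS* values limit which probes were judged.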
